A study of Rattus norvegicus with 28 samples.

Results

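The pools described here are pieces of rat aortic wall that carried much or little RNA of fat cells. Of the 28 pools of the series, 9 were fat-rich, with a level of 7 or more on the log2 scale for the Adipoq probe set, and 14 were fat-poor, with a level under 6. The 5 pools between these limits were left out of the comparison. Adipoq encodes adiponectin, a hormone secreted by fat cells.

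All animals were untreated male Wistar rats of normal physiology. Whole-thickness pieces of the aortic arch, with intima, media and adventitia, were taken from a region of low wall shear stress (Low WSS) and a region of high wall shear stress (High WSS) located by computational fluid dynamics, and the RNA was measured on Affymetrix Rat Gene 1.1 ST arrays. Each pool held tissue of 5 animals, and 70 animals gave 14 pairs of a Low WSS and a High WSS pool from the same animals. Pools of the same number were taken here as a pair, which the labels and methods do not state. The fat-rich class held 6 Low WSS pools (numbers 1, 2, 3, 4, 5 and 7) and 3 High WSS pools (4, 5 and 6). The fat-poor class held 5 Low WSS pools (8, 10, 11, 13 and 14) and 9 High WSS pools (2, 3, 8, 9, 10, 11, 12, 13 and 14), and the pools between were Low WSS 6, 9 and 12 and High WSS 1 and 7. Neither the labels nor the methods say whether fat around the vessel was trimmed, and pooling hides differences between animals.

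The aorta is wrapped in perivascular fat, which in the rat thoracic aorta resembles brown fat. White fat cells store triglyceride and release fatty acids and hormones. Brown fat cells also burn fatty acids in mitochondria that uncoupling protein 1, the product of Ucp1, makes leak protons so that heat is produced. In a bulk sample, more fat cells and more RNA per fat cell cannot be told apart.

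The pools were chosen by their measured Adipoq level, so every difference between fat-rich and fat-poor pools below is a description with its error, without a test, and counts of genes past the adjusted p threshold of 0.05 describe its size and are no evidence about the classes. Adipoq ranged from 8.11 to 10.21 with a median of 9.21 in fat-rich pools, and from 4.14 to 5.96 with a median of 4.94 in fat-poor pools. The lowest fat-rich pool was Low WSS 4 at 8.11, the highest and the lowest of the pools between were Low WSS 12 at 6.85 and Low WSS 6 at 6.14, and the highest fat-poor pool was Low WSS 10 at 5.96. No pool lay between 6.85 and 8.11, so the upper limit fell in a gap, whereas the lower limit of 6 ran between pools at 5.96 and 6.14.

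The pools did not fall evenly over the pair numbers. All 9 fat-rich pools came from pairs 1 to 7 and 12 of the 14 fat-poor pools from pairs 8 to 14. After the data were seen, pairs 4 to 7 were found to stand apart from the other pairs in genes outside the fat lists: Pop5, a subunit of ribonuclease P, ranged from 5.13 to 6.06 in the 8 pools of pairs 4 to 7, against 6.66 to 7.59 in the other 20 pools, and Cit, which encodes citron kinase, from 6.03 to 6.93, against 4.82 to 5.80. With Adipoq and region in the model, 780 genes were higher and 507 lower in pairs 4 to 7 than in the other pairs. Neither the labels nor the methods give a reason. These pairs held 6 of the 9 fat-rich pools, 2 of the pools between and 0 fat-poor pools, so the counts of genes past the threshold, over all genes and by list, are also given with them left out, which leaves 3 fat-rich pools, all from the Low WSS region, against 14.

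The classes did not overlap in Ucp1, Plin1 and Fabp4, the marker genes of fat other than Adipoq. Ucp1 was 10.60, 10.42, 9.89, 8.06, 8.06 and 10.94 in Low WSS fat-rich pools 1, 2, 3, 4, 5 and 7 and 10.05, 8.91 and 8.15 in High WSS fat-rich pools 4, 5 and 6, while its lowest, median and highest levels in fat-poor pools were 4.35, 4.97 and 6.48. Every fat-rich pool lay above every fat-poor pool. The difference between fat-rich and fat-poor pools, with region in the model, was 4.22 (SE 0.37, n = 9 and 14), or 18.6-fold.

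Plin1, which encodes the perilipin that coats the lipid droplet, was 9.21, 8.89, 8.75, 7.41, 7.53 and 9.26 in the same Low WSS fat-rich pools and 9.21, 7.74 and 7.77 in the High WSS ones, and 4.97, 5.15 and 5.96 (lowest, median and highest) in fat-poor pools. Its difference was 3.09 (SE 0.23), or 8.53-fold, and the classes did not overlap. Fabp4, the fatty acid binding protein of fat cells, had levels from 6.93 to 9.25 with a median of 8.91 in fat-rich pools and from 4.35 to 5.55 with a median of 5.04 in fat-poor pools, a difference of 3.05 (SE 0.28), or 8.28-fold. The label of the classes thus held for Ucp1, Plin1 and Fabp4, while other genes of brown fat, given below, did not all follow. The pools were graded within the fat-rich class. For Plin1, Fabp4 and Cpt1b, Low WSS 1, 2, 3 and 7 and High WSS 4 stood above Low WSS 4 and 5 and High WSS 5 and 6. For Ucp1 the same 5 pools were highest.

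**Figure D1:**
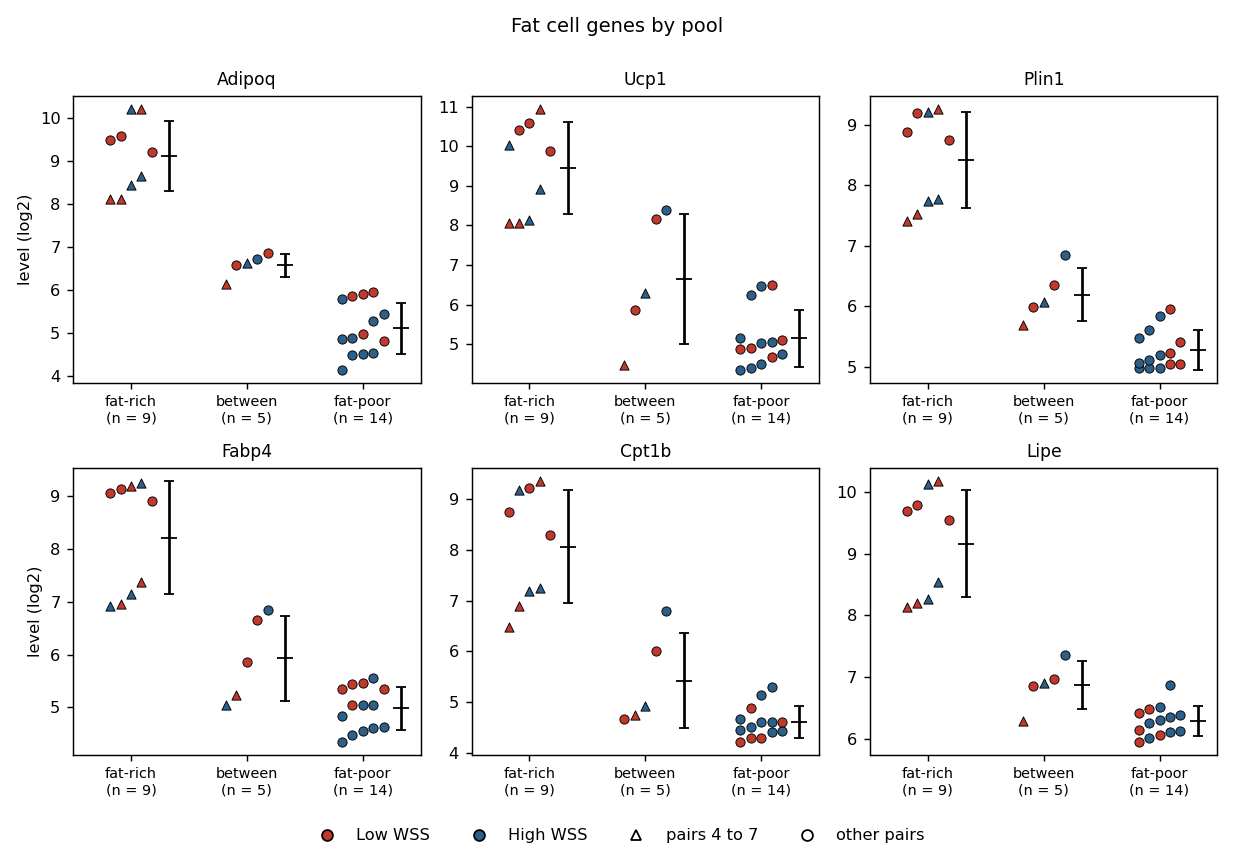
Level (log2, y axis) of Adipoq, Ucp1, Plin1, Fabp4, Cpt1b and Lipe in each of 28 pools, by fat class (x axis: 9 fat-rich, 5 between, 14 fat-poor). Red points are Low WSS and blue points High WSS pools, triangles are pairs 4 to 7, and the black mark is the class mean with its SD; in all 6 panels every fat-rich pool lies above every fat-poor pool, and for Adipoq the classes were set by that level.

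Over all 11750 genes, 1349 (11.5%) were higher and 649 (5.52%) were lower in fat-rich than in fat-poor pools past the adjusted p threshold (limma, Benjamini-Hochberg). With pairs 4 to 7 left out the counts were 1193 and 383, and with pairs 4 to 7 as a covariate 972 and 350. With the pair as a fixed replicate block they were 509 and 104, a fit in which the difference rests on the 2 pairs that held both classes. These were pairs 2 and 3, each with a Low WSS fat-rich and a High WSS fat-poor pool. Deviations from region means correlated at -0.012 and 0.002 within them. Those deviations keep the fat class difference, which sets the 2 pools of each pair apart. The values thus cannot show whether these pools were paired. Of the 1348 higher genes other than Adipoq, 35 had a mean level under 4 in fat-poor pools, so that they reached the level set for testing through the other pools. Among them were 10 of the 93 genes that were higher by at least 1 on the log2 scale. The large differences ran one way: 94 of the genes past the threshold were higher by at least 1 on the log2 scale and 2 were lower by as much, and at 2 on the log2 scale the counts were 30 and 0. In 131 genes (1.11%) every fat-rich pool lay above every fat-poor pool, and in 7 genes (0.0596%) every fat-rich pool lay below. The share of these calls that were higher, 67.5%, depended on the scaling and was 45.4% with each array centred on its median and 55.7% after quantile normalisation, which moved the median over all genes to -0.04 and -0.01, against 0.01 as deposited.

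Many of the genes with the largest differences make or store fat. Of 17 pan-adipocyte genes tested apart from Adipoq, 15 were higher and 0 lower with all pools, with pairs 4 to 7 left out and with the pair block. The median difference was 2.11. Of the 15 higher with all pools, 1 had a mean level under 4 in fat-poor pools and was tested only through the other pools. Gpd1, which makes the glycerol backbone of triglyceride, was 13.0-fold higher. Thrsp, a regulator of lipid synthesis, ranged from 9.04 to 11.52 with a median of 10.41 in fat-rich pools, and from 5.28 to 7.16 with a median of 5.79 in fat-poor pools, a difference of 4.28 (SE 0.30), or 19.4-fold. Scd, the desaturase that makes oleic acid, ranged from 10.46 to 12.48 (median 11.75) in fat-rich pools and from 6.68 to 9.28 (median 7.79) in fat-poor pools, 13.5-fold apart. Car3, a carbonic anhydrase abundant in fat cells, differed by 3.52 (SE 0.36), with levels of 9.67 to 10.92 in fat-rich pools and 4.96 to 8.41 in fat-poor pools. In Thrsp, Scd and Car3 alike the lowest fat-rich pool lay above the highest fat-poor pool. Alb, serum albumin, best known from liver, was also among them, at 5.96 to 8.67 in fat-rich pools and 3.10 to 4.23 in fat-poor pools, and differed by 3.59 (SE 0.29). Its mean of 3.68 in fat-poor pools was under the level of 4 set for testing, which it reached through the other pools, so the size of its difference is uncertain.

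Of the synthesis list, 11 of 13 tested genes were higher and 1 was lower past the threshold, with a median difference of 1.08, against 0.01 over all genes. With pairs 4 to 7 left out the counts were 11 and 0. Acly, which makes cytosolic acetyl-CoA from citrate, was 2.60-fold higher, with levels of 8.21 to 9.78 in fat-rich pools and 7.47 to 7.77 in fat-poor pools. The lower member was Scd2, a desaturase related to Scd, with a difference of -0.28 with all pools and -0.17 with those pairs left out. Fasn, Srebf1 and Mlxipl were not analysed here, since no probe set used named them alone.

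Triglyceride storage and lipolysis had 16 of 21 tested genes higher and 0 lower, with a median of 0.67, and 14 higher with pairs 4 to 7 left out. Dgat2, the last enzyme of triglyceride synthesis, was 14.1-fold higher (difference 3.82, SE 0.26), with levels of 8.10 to 10.62 in fat-rich pools and 4.63 to 5.98 in fat-poor pools. Cidec, which enlarges lipid droplets, differed by 3.50 (SE 0.26). Lipe, the hormone-sensitive lipase that breaks triglyceride down again, ranged from 8.14 to 10.17 (median 9.54) in fat-rich pools and from 5.96 to 6.87 (median 6.28) in fat-poor pools, 7.24-fold apart. Genes of both directions of triglyceride turnover were thus higher in the same pools.

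Uptake and activation of fatty acids had 7 of 13 tested genes higher and 0 lower, and 8 higher with pairs 4 to 7 left out. Lpl, the lipase that frees fatty acids from circulating lipoproteins, ranged from 7.86 to 10.06 in fat-rich pools and from 4.60 to 6.17 in fat-poor pools, a 9.94-fold difference. Gpihbp1, which anchors that lipase to capillary walls, differed by 1.14 (SE 0.16), and Acsl1, which activates fatty acids with coenzyme A, by 1.55 (SE 0.16). Slc2a4, the insulin-responsive glucose transporter, was a member of the fat gene lists that did not pass the threshold, at -0.09, and so were Plin4 at -0.00 and the insulin receptor Insr at 0.00. With Adipoq and region in the model, Slc2a4 differed by -0.51 (SE 0.07) between pairs 4 to 7 and the other pairs. Its class difference thus mixes the fat class with those pairs, which held no fat-poor pool.

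Genes of brown fat were higher too, though not all of them. Of 20 tested, 15 were higher and 0 lower, with a median of 0.89, and 15 were higher with pairs 4 to 7 left out. Of the 15 higher with all pools, 2 had a mean level under 4 in fat-poor pools and were tested only through the other pools. Cox8b, a cytochrome oxidase subunit of brown fat and muscle, ranged from 4.85 to 7.29 in fat-rich pools and from 3.86 to 4.49 in fat-poor pools (difference 2.09, SE 0.23), and Adrb3, the adrenergic receptor through which noradrenaline drives fat cells in rodents, from 5.57 to 7.71 in fat-rich pools and from 3.72 to 5.12 in fat-poor pools (difference 2.49, SE 0.24). Cidea, a lipid droplet protein of brown fat named after its values were seen, differed by 0.94 (SE 0.14), and its classes overlapped, with 10.12 as the lowest fat-rich and 10.14 as the highest fat-poor level. Zic1 at 0.00, Ppargc1a at 0.05 and Kcnk3 at -0.12 did not pass the threshold. Elovl3, Lhx8 and Bmp8b were under the mean level of 4 set for testing, and Cox7a1 and Prdm16 were not analysed here.

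White or beige fat was represented by 7 tested genes, of which 4 were higher and 0 lower, with or without pairs 4 to 7. Retn, the adipokine resistin of rodent fat, ranged from 5.26 to 6.70 in fat-rich pools and from 4.51 to 5.04 in fat-poor pools. Agt, angiotensinogen, ranged from 4.47 to 6.00 in fat-rich pools and from 3.73 to 4.32 in fat-poor pools. Lep, which encodes leptin and marks white fat, and Hoxc8 and Tcf21 were under level 4 and were not tested.

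In mitochondrial fatty acid oxidation 20 of 21 tested genes were higher and 1 lower, with a median of 0.62, and 20 and 0 with pairs 4 to 7 left out. Its leading gene was Cpt1b, the carnitine palmitoyltransferase of muscle and brown fat that admits fatty acids to mitochondria. Cpt1b was 9.21, 8.74, 8.29, 6.89, 6.49 and 9.36 in Low WSS fat-rich pools 1, 2, 3, 4, 5 and 7 and 9.18, 7.19 and 7.24 in High WSS fat-rich pools 4, 5 and 6, against 4.22, 4.55 and 5.29 (lowest, median and highest) in fat-poor pools, an 11.1-fold difference. Cpt1a, the liver form of the same enzyme, was the lower member, at -0.20 with all pools and 0.03 with pairs 4 to 7 left out.

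The other oxidation genes differed less. Hadha, the alpha subunit of the trifunctional protein, was 1.58-fold higher (fat-rich 9.18 to 10.15, fat-poor 8.71 to 9.24), and Acadvl, the very long chain acyl-CoA dehydrogenase, was 1.49-fold higher (fat-rich 8.24 to 9.25, fat-poor 8.04 to 8.42). The classes overlapped in both genes. The list had 5 genes in which they did not, among them Cpt1b and Cpt2, the inner-membrane carnitine palmitoyltransferase, which was 8.16 to 9.22 in fat-rich pools and 7.71 to 8.10 in fat-poor pools.

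Genes of this list are textbook targets of PPAR nuclear receptors, which bind with RXR to a repeat of AGGTCA, 1 base of any kind, and AGGTCA. Windows from 250 bases before to 50 after the start of each gene (RefSeq, assembly GRCr8) were searched on both strands for this motif, allowing 2 mismatches outside the free base, and no other motif was searched. It was found in 1020 of 27457 windows (3.71%), in 249 of the 9685 genes tested that had a window (2.57%) and in 5 of the 17 fatty acid oxidation genes that had one (29.4%). Among the other fat lists with a window for at least 80% of their genes, it was found in 2 of 11 synthesis genes and 1 of 16 brown fat genes, and in 0 of 17 triglyceride, 0 of 18 citric acid cycle and 0 of 15 adipogenic genes. The pan-adipocyte, white fat, uptake, adipokine and signalling lists had a window for fewer of their genes and no match. Exact matches occurred in 16 windows (0.0583%), none of them of a gene of this list. The matches upstream of the start in 4 oxidation genes, and that of Ucp3, a mitochondrial uncoupling protein of muscle and brown fat, are shown because these genes were higher together. Capitals mark the 13 bases matched, written along the gene's strand.
Acadvl (chr10:55236706-55236762, minus strand): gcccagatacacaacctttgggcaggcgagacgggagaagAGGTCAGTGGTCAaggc
Crat (chr3:34087270-34087349, minus strand): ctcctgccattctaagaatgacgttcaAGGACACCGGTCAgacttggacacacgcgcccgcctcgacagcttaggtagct
Echs1 (chr1:204333609-204333701, minus strand): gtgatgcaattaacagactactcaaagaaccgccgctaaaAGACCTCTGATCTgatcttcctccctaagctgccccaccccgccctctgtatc
Etfa (chr8:64788067-64788159, minus strand): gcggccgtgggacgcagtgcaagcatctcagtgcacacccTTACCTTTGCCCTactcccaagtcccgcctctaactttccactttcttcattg
Ucp3 (chr1:164227813-164227905, plus strand): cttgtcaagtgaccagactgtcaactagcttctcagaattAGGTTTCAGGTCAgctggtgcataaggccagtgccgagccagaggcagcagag
The motif lies along the gene's strand in Acadvl, Crat and Ucp3 and on the opposite strand in Echs1 and Etfa. It differs from the repeat by 1 base in Acadvl and by 2 in the others. Crat, Echs1 and Etfa, which handle acyl-carnitines, enoyl-CoA and electrons from dehydrogenases, differed between fat-rich and fat-poor pools by 0.48, 0.48 and 0.52, and Ucp3 by 1.44. A match of letters is no binding site shown.

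The citric acid cycle and the entry of pyruvate had 15 of 20 tested genes higher and 1 lower (Sdhc, -0.20, and 0.03 with pairs 4 to 7 left out), and the subunits of oxidative phosphorylation 37 of 77 higher and 2 lower. Pc, pyruvate carboxylase, ranged from 7.12 to 9.01 in fat-rich pools and from 5.53 to 6.08 in fat-poor pools, 4.79-fold apart. Cs, citrate synthase, ranged from 10.05 to 10.78 in fat-rich pools and from 9.70 to 10.02 in fat-poor pools, 1.40-fold apart. The respiratory chain moved less, with a median of 0.16 over its 77 genes. With pairs 4 to 7 left out 17 of 20 and 37 of 77 were higher, and with the pair block 5 of 20 and 18 of 77.

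Among the regulators of fat cell formation, 10 of 17 tested genes were higher and 0 lower, and 11 higher with pairs 4 to 7 left out. Pparg, the nuclear receptor that drives fat cell formation, ranged from 6.01 to 8.45 (median 6.75) in fat-rich pools and from 4.38 to 5.31 (median 4.93) in fat-poor pools, a difference of 2.06 (SE 0.22). Cebpa, its partner factor, ranged from 5.46 to 7.52 in fat-rich pools and from 4.63 to 5.23 in fat-poor pools. Ebf2, a factor of brown fat precursors, ranged from 5.92 to 7.09 in fat-rich pools and from 4.48 to 5.59 in fat-poor pools. None of the 3 genes overlapped between the classes.

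Adipokines and other secreted factors had 8 of 13 tested genes higher and 0 lower, apart from Adipoq, with or without pairs 4 to 7. Cfd, the complement factor adipsin, was 2.88-fold higher and Rbp4, the retinol carrier, 3.13-fold. Insulin and adrenergic signalling had 7 of 15 higher and 2 lower, with a median of 0.01, but 6 and 0 with pairs 4 to 7 left out and 4 and 0 with the pair block. The 2 lower members were Adcy5, an adenylyl cyclase, at -0.26 and Pde3a, a phosphodiesterase of smooth muscle, at -0.14, which were 0.00 and -0.12 with those pairs left out, while Pde3b, its relative in fat cells, was at 0.83. Of 13 tested Schwann cell and nerve genes, 2 were higher and 1 lower, against 3 and 0 with pairs 4 to 7 left out. The higher ones were Mbp, a myelin protein (1.42, SE 0.16), and S100b, a calcium-binding protein also made by fat cells (0.98, SE 0.10). The lower one was Uchl1, a neuronal ubiquitin hydrolase (-0.56). Over all genes 11.5% were higher and 5.52% lower, so the 2 and 1 of 13 are near those shares.

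**Figure D2:**
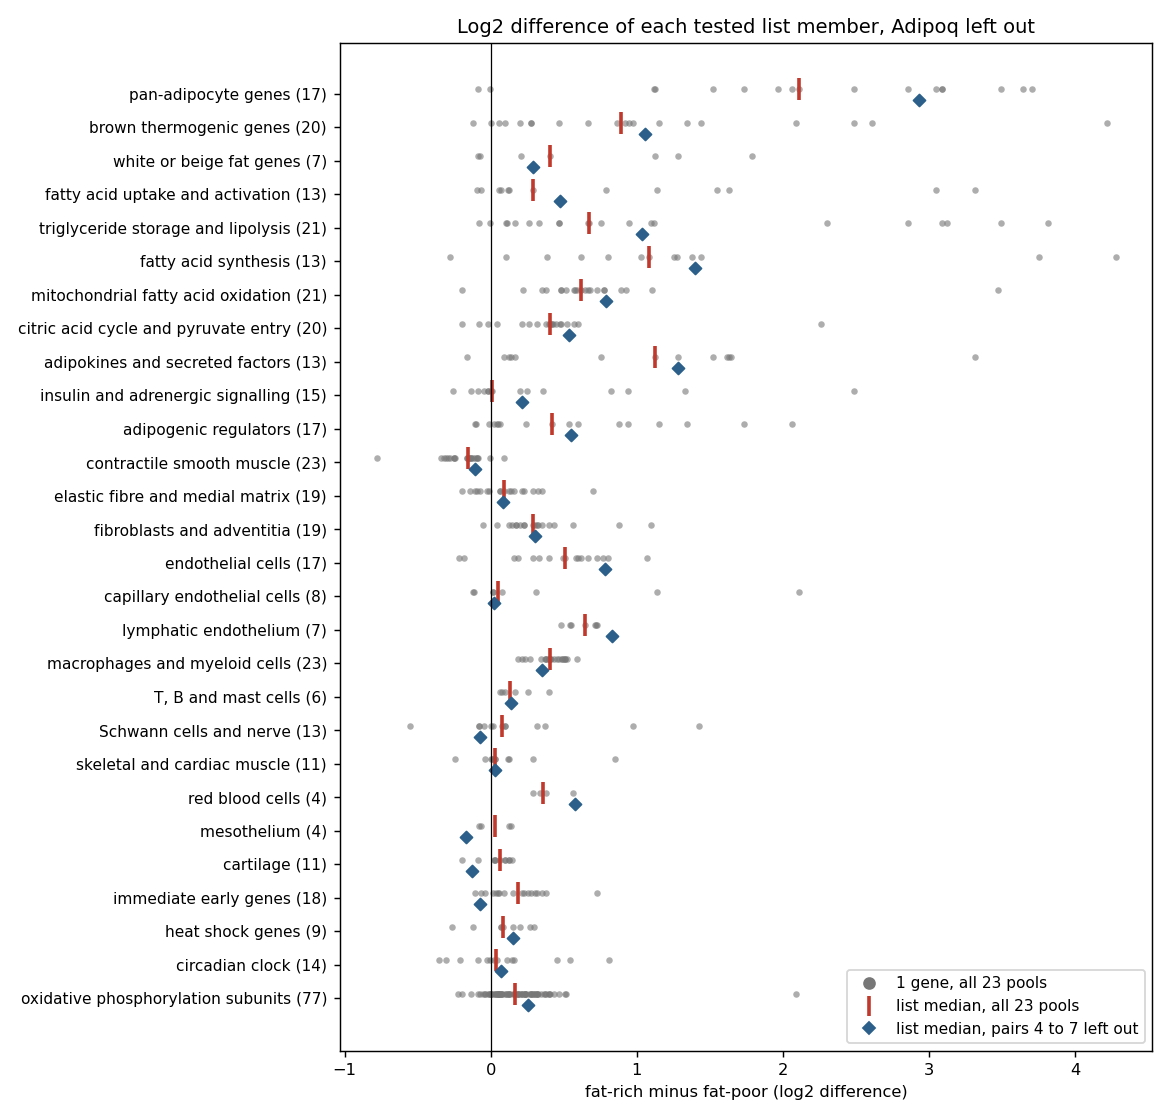
Difference between fat-rich and fat-poor pools (log2, x axis) of each tested gene of 28 gene lists (y axis, with the number of genes), Adipoq left out. Grey points are genes, red bars the list medians with all 23 pools and blue diamonds the medians with pairs 4 to 7 left out; the largest median is that of pan-adipocyte genes (2.11) and the lowest that of contractile smooth muscle (-0.16).

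The pools also differed in genes of other cells of the wall. Macrophage and myeloid genes had 20 of 23 higher and 0 lower, and their mean level was 6.63 to 6.94 in fat-rich pools and 6.10 to 6.67 in fat-poor pools, but with pairs 4 to 7 left out 9 were higher and with the pair block 6. Csf1r, the receptor for macrophage growth factor, was 8.04 to 8.49 in fat-rich pools and 7.48 to 8.17 in fat-poor pools. Fibroblast and adventitial genes had 14 of 19 higher and 0 lower, 8 with pairs 4 to 7 left out and 5 with the pair block, and their mean level was 9.59 to 9.87 in fat-rich pools and 9.18 to 9.59 in fat-poor pools. Pi16, of adventitial fibroblasts, differed by 0.88 (SE 0.13) and Fbln2, a matrix protein, by 0.70 (SE 0.09).

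Endothelial genes had 12 of 17 higher and 1 lower (Erg, -0.22), and 13 and 0 with pairs 4 to 7 left out. Of the 12, 1 had a mean level under 4 in fat-poor pools and was tested only through the other pools. Low WSS pools alone had 10 higher and 0 lower, and High WSS pools alone 4 higher and 1 lower. Mean levels of the list overlapped, at 6.48 to 7.00 in fat-rich and 6.07 to 6.72 in fat-poor pools. Cdh5, the cadherin of endothelial junctions, ranged from 6.88 to 7.44 in fat-rich pools and from 6.24 to 6.82 in fat-poor pools, without overlap. The lymphatic list, 7 genes that include Lyve1 and Prox1, had 7 higher, 5 with those pairs left out and 3 with the pair block. In Low WSS pools alone 7 were higher, but in High WSS pools alone 1 was. Mean levels of the list, 6.38 to 6.84 in fat-rich pools, lay within the 5.25 to 7.01 of fat-poor pools. Of the T, B and mast cell list 11 genes were under level 4, Cd3e, Ms4a1, Cpa3 and Cma1 among them, and 1 of the 6 tested, Cd4, was higher, and 0 with those pairs left out or with the pair block. Red cell, mesothelial, cartilage, heat shock and clock lists, with 4, 4, 11, 9 and 14 genes tested by limma, had 0 genes past the threshold, and 3, 0, 2, 3 and 1 at an unadjusted p under 0.05, while 1, 0, 1, 0 and 1 passed the threshold with pairs 4 to 7 left out and 2, 0, 0, 0 and 1 with the pair block. Of 11 skeletal and cardiac muscle genes 2 were higher (Mb, myoglobin, and Myl1) and of 18 immediate early genes 1 (Klf4). With pairs 4 to 7 left out these lists had 2 and 2 higher genes, and with the pair block 0 and 0. Over all genes 11.5% were higher, so counts this small, like the 1 of 6 above, are near that share. Of 8 capillary genes 3 were higher, Gpihbp1, Meox2 and Aqp7, a glycerol channel that fat cells also use, against 2 in either alternative fit. Of 19 genes of elastic fibres and medial matrix 6 were higher and 1, Vcan, lower, against 3 and 1 with pairs 4 to 7 left out and 2 and 0 with the pair block. Whether more of these cells or more of their RNA gave the differences was not tested.

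Contractile smooth muscle genes, which mark the bulk of the media, ran the other way: 0 of 23 tested were higher and 11 lower, with a median of -0.16. Their mean level was 10.4 to 10.8 in fat-rich pools and 10.7 to 11.0 in fat-poor pools. Mylk, the myosin light chain kinase, was 10.92 to 11.21 in fat-rich pools and 11.25 to 11.53 in fat-poor pools, a difference of -0.24 (SE 0.05) without overlap, and Myh11, the smooth muscle myosin, differed by -0.16 (SE 0.05). Tagln, at 12.16 to 12.59 in fat-rich pools and 12.30 to 12.55 in fat-poor pools, and Cnn1, at -0.14, did not pass the threshold. Des, desmin, differed by -0.78 (SE 0.17) with all pools and by -0.12 with pairs 4 to 7 left out. The count of lower genes was 3 of 23 with those pairs left out, 1 with the pair block and 17 with each array centred on its median.

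**Figure D3:**
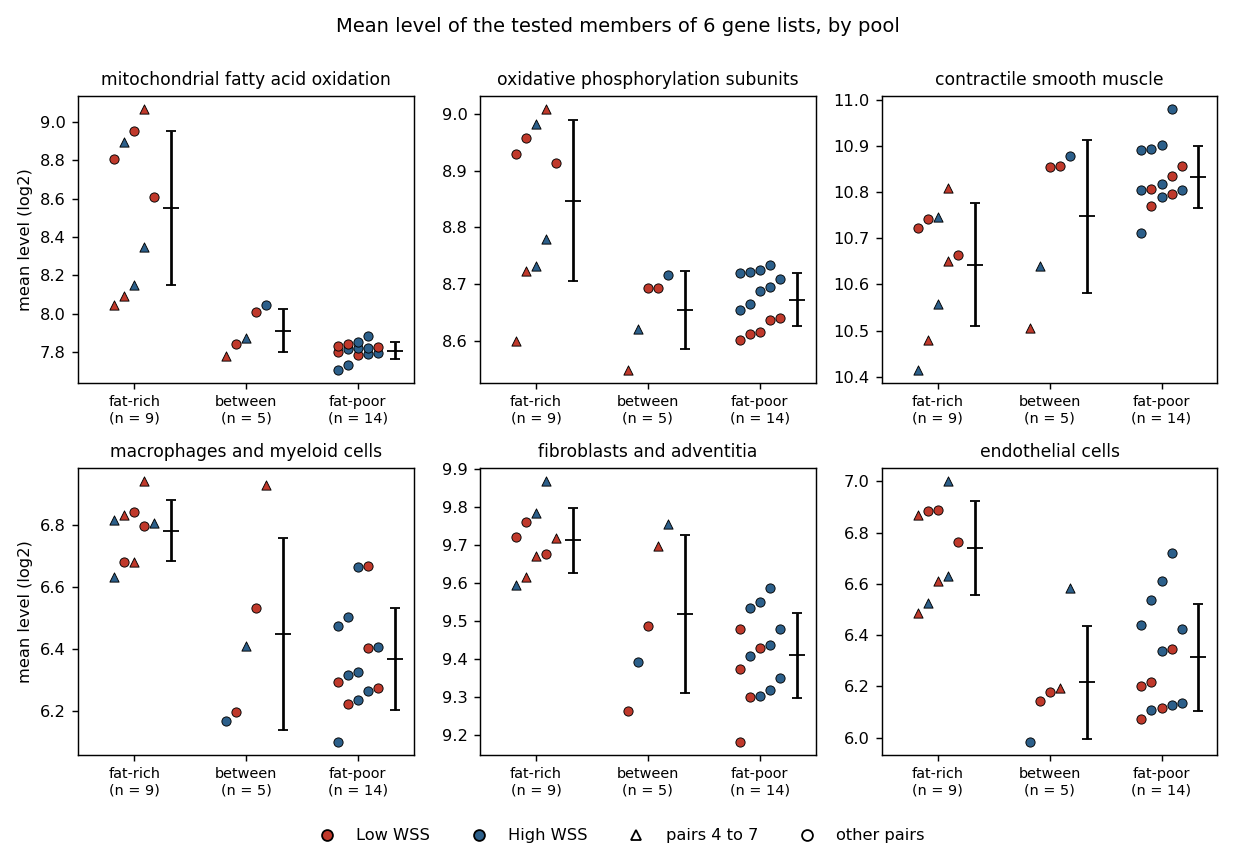
Mean level (log2, y axis) over the tested genes of 6 lists in each pool, by fat class (x axis: 9 fat-rich, 5 between, 14 fat-poor). Red points are Low WSS, blue points High WSS, triangles pairs 4 to 7, black marks class means with SD; fatty acid oxidation genes run from 8.05 to 9.07 in fat-rich pools and from 7.71 to 7.89 in fat-poor pools, and smooth muscle genes lie lower in fat-rich pools.

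Few genes were far lower in fat-rich pools. Cend1, known for taking neuronal precursors out of the cell cycle, ranged from 6.69 to 7.22 (median 7.01) in fat-rich pools and from 7.54 to 8.45 (median 7.82) in fat-poor pools, a difference of -0.84 (SE 0.09) without overlap, and -0.79 with pairs 4 to 7 left out. Rragd, a GTPase that links nutrients to mTORC1, ranged from 6.52 to 6.92 in fat-rich pools and from 7.04 to 7.47 in fat-poor pools (difference -0.52, SE 0.07). With Adipoq and region in the model, Rragd also differed by -0.45 (SE 0.09) between pairs 4 to 7 and the other pairs. Asph, Btc, Inpp1, Mta3 and Mylk were the other 5 genes in which every fat-rich pool lay below every fat-poor pool, with differences of -0.24 to -0.34. With pairs 4 to 7 left out, Btc was at -0.18 and did not pass the threshold. Asph, Inpp1, Mta3 and Mylk still passed, at -0.33, -0.32, -0.38 and -0.23.

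Ryr2, a calcium release channel, differed by -0.48 (SE 0.05) and Inhba, a subunit of activin, by -0.42 (SE 0.06), each with overlapping classes, and by -0.45 and -0.43 with pairs 4 to 7 left out. Some lower genes moved with those pairs: Pop5 differed by -1.30 with all pools and -0.02 without them, and Penk, the enkephalin precursor, by -1.05 and 0.00 in the same order. Both were named after their values were seen. Of the 20 leading lower genes, 13 stayed past the threshold with those pairs left out and 4 with the pair block, against 19 and 18 of the 19 leading higher genes apart from Adipoq.

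**Figure D4:**
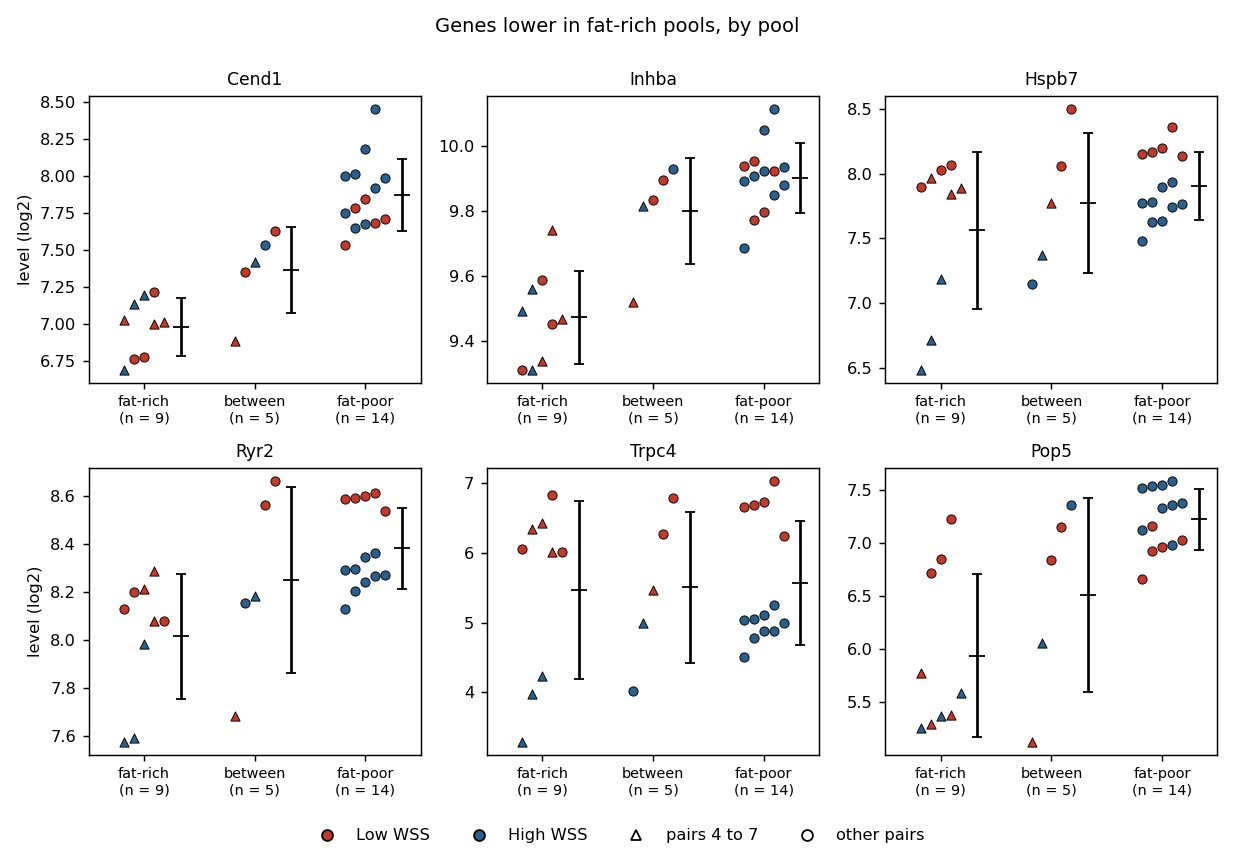
Level (log2, y axis) of Cend1, Inhba, Hspb7, Ryr2, Trpc4 and Pop5 in each of 28 pools, by fat class (x axis: 9 fat-rich, 5 between, 14 fat-poor). Red points are Low WSS, blue points High WSS, triangles pairs 4 to 7, black marks class means with SD; Cend1 does not overlap between classes, whereas the low Pop5 levels are those of the 8 pools of pairs 4 to 7.

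The 5 pools between the classes did not enter these fits. Of the 93 genes other than Adipoq that were higher by at least 1 on the log2 scale, the mean of the 5 pools lay between the class means for 90. For Ucp1, the levels were 8.39 in High WSS 1, 8.17 in Low WSS 9, 6.30 in High WSS 7, 5.87 in Low WSS 12 and 4.47 in Low WSS 6, while Adipoq in the same pools ran from 6.14 to 6.85. Pools with like Adipoq levels thus differed widely in Ucp1. For Cpt1b the levels in these pools were 6.79, 6.00, 4.93, 4.66 and 4.73 in that order, again highest in High WSS 1 and Low WSS 9.

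The study compared Low WSS with High WSS, so the Adipoq level was also set against region. The Adipoq level averaged 7.27 ± 1.81 in Low WSS pools and 6.04 ± 1.86 in High WSS pools (SD, n = 14 each). The difference within pairs was 1.23 ± 2.20 (SD, 14 pairs), with Low WSS higher in 9 pairs (two-sided exact sign-flip permutation test, p = 0.058). The class split, 6 Low WSS and 3 High WSS in the fat-rich class against 5 and 9 in the fat-poor class, gave p = 0.214 by a two-sided Fisher's exact test. Neither passed 0.05.

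Within the fat-poor class, 1455 genes (12.4%) were higher and 1683 (14.3%) lower in Low WSS than in High WSS pools, and within the fat-rich class 861 (7.33%) were higher and 796 (6.77%) lower (limma, adjusted p under 0.05). The median SE of a gene's difference was 0.084 in the fat-poor and 0.106 in the fat-rich class, and all 3 High WSS fat-rich pools came from pairs 4 to 6. Of the genes called in both classes, 969 of 971 had the same direction, and 2770 of the 3138 genes called in fat-poor pools had the same sign in fat-rich pools. The region fit behind these counts did not use the pairs. With the pair as a random block, 3799 genes were called in fat-poor and 2109 in fat-rich pools.

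Hand2, a transcription factor of the developing heart and vessels, was 7.10 ± 0.24 in Low WSS and 4.98 ± 0.14 in High WSS fat-rich pools (limma adjusted p = 1.19e-11), and 7.06 ± 0.18 in Low WSS and 5.12 ± 0.09 in High WSS fat-poor pools (adjusted p = 3.65e-13). Its region differences, 2.12 and 1.95, differed between the fat classes by 0.17 (SE 0.15, interaction adjusted p = 0.666). Trpc4, a cation channel of the vessel wall, differed by region by 2.45 in fat-rich and 1.73 in fat-poor pools (adjusted p = 1.17e-08 and 2.92e-08, limma), and Fgf12, an intracellular fibroblast growth factor homologue, by -1.51 in both (adjusted p = 1.17e-08 and 1.32e-10, limma). Klf2, a flow-induced endothelial factor, differed by 0.05 in fat-rich pools and by -0.64 in fat-poor pools (adjusted p = 0.866 and 0.000574, limma), and the difference of 0.69 (SE 0.20) between these did not pass (interaction adjusted p = 0.207). Of the 30 tested array genes that the study names, 13 were higher and 14 lower in Low WSS pools of the fat-rich class and 13 and 15 in those of the fat-poor class. The study named most of them, Hand2, Trpc4 and Fgf12 included, for their region difference on these same arrays. These region counts and p-values are thus no independent support. Between fat-rich and fat-poor pools 1 of the 30 was higher (Plce1) and 4 were lower, among them Trpc4 at -0.72 (SE 0.14) with all pools and -0.37 with pairs 4 to 7 left out. Those counts were 2 and 1 with pairs 4 to 7 left out and 0 and 0 with the pair block.

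A test of whether the region difference itself depended on the fat class called 1 of 11750 genes (0.00851%), while 1476 had an unadjusted p under 0.05. The gene was Fgf1, acidic fibroblast growth factor, at 7.73, 7.86, 7.90, 7.75, 7.85 and 7.81 in Low WSS fat-rich pools and 7.25, 7.11 and 6.97 in High WSS fat-rich pools. In fat-poor pools it averaged 7.90 ± 0.07 in Low WSS and 7.87 ± 0.14 in High WSS pools (SD, n = 5 and 9). The region difference was larger by 0.68 (SE 0.11) in fat-rich pools (limma interaction, adjusted p = 0.0188), and the call was lost without Low WSS pool 3, 11 or 14.

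The leading fat genes did not pass between regions within a class. Ucp1 differed by 0.63 (SE 0.59) in fat-rich and 0.10 (SE 0.47) in fat-poor pools, Lpl by 0.60 (SE 0.38) and 0.55 (SE 0.30), and Fabp4 by 0.66 (SE 0.45) and 0.54 (SE 0.35), none past the threshold. Nnat, a white fat gene of the lists, did, at -1.22 in fat-rich and -0.67 in fat-poor pools (limma adjusted p = 0.00115 and 0.00887). With Adipoq and region in the model, Nnat was also higher by 0.92 (SE 0.17) in pairs 4 to 7. All High WSS fat-rich pools came from those pairs, so its difference in fat-rich pools mixes region with pair. Nnat was not the only fat list member to pass. Of 77 oxidative phosphorylation genes, 5 were higher and 20 lower in Low WSS pools of the fat-poor class, and 7 and 10 in the fat-rich class. The synthesis list had 2 of 13 higher and 0 lower in each class. The citric acid cycle list had 3 of 20 higher in each class, with 1 lower in fat-poor and 0 in fat-rich pools. Of the lists, lymphatic endothelial genes had 6 of 7 lower in Low WSS than in High WSS pools of the fat-poor class and 0 in the fat-rich class, a contrast whose difference passed for none of them.

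**Figure D5:**
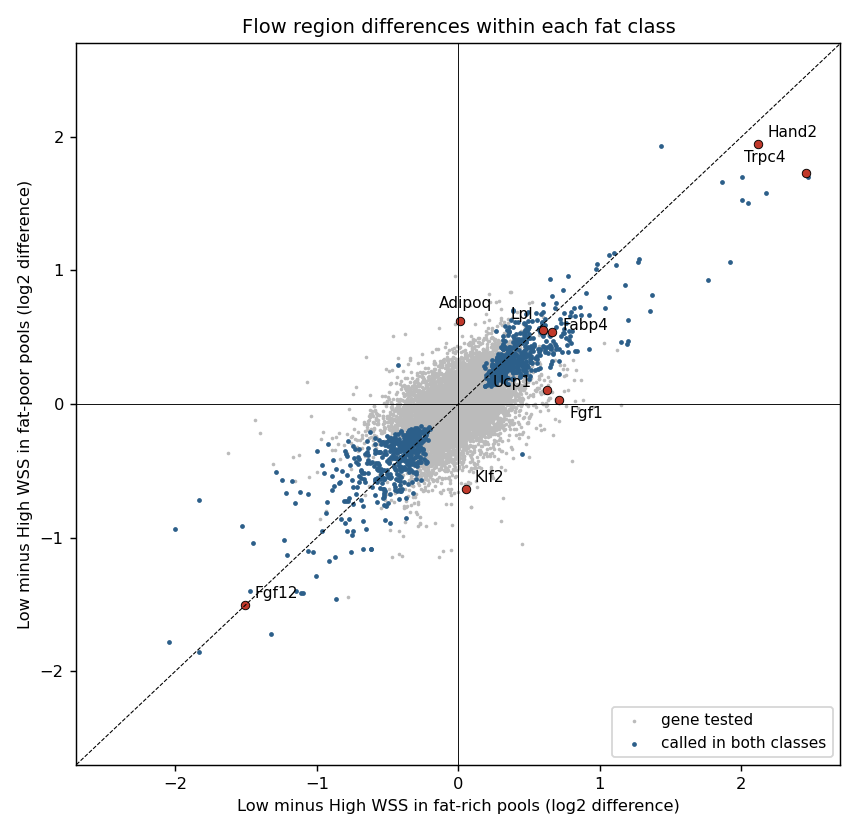
Low WSS minus High WSS difference (log2) of 11750 genes in fat-rich pools (x axis) and in fat-poor pools (y axis). Blue points are the 971 genes past the threshold in both classes, red points named genes, the dashed line equality; Hand2 and Fgf12 lie near that line, Trpc4 lies off it at 2.45 and 1.73, and Fgf1 at 0.71 and 0.03.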

How the data were processed

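RNA of 28 pools was hybridised to Affymetrix arrays, and the authors deposited log2 levels after RMA, with annotation on rn4 per the submitters' processing notes. RMA equalises arrays, so a shift shared by most genes would not show, and the number of pools limits the precision. Of 29214 probe sets, 18644 had 1 gene symbol in GEO's platform annotation, 962 several and 9608 none. The 13383 with a symbol and a mean level of at least 4 were tested and adjusted by Benjamini-Hochberg, and 11750 genes were counted by their brightest probe set with 1 symbol.

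Fits used limma 3.58.1 in R 4.3.3, tested on simulated data, on the 23 pools of both classes with region as covariate, or on 4 groups of class and region for the region comparisons. Low WSS and High WSS pools of a number were taken to come from the same animals, which the labels do not state. Their deviations from region means correlated at -0.012 to 0.481, over 0.1 in 11 of 14 pairs. Pairs 1, 2 and 3 stood at 0.039, -0.012 and 0.002. Fat class was not taken out of these deviations, and the pools of pairs 1, 2 and 3 fell in unlike classes. The correlations thus cannot settle the pairing by number, which stays uncertain. The fit with the pair as a block is given where it moved a printed count by over 1.5 times. The random block is also given for the region counts.

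Named genes were the markers, the 20 largest differences in each direction among called genes without overlap within a region, up to 5 members per list by adjusted p and up to 3 called in the opposite direction, the 10 leading genes of each region direction and of the interaction, genes the study names for the array, and other genes singled out after their values were seen, among them list members that were not called. The members and the 29 gene lists were chosen with earlier results of these data known. Alternatives were the filter, centring, quantile normalisation, pair blocks, each region alone, stricter classes (Adipoq of at least 8 against under 5), an unpaired form of the methods' t-test (the classes are not paired), Bonferroni adjustment, leaving out pools and, added after seeing the data, fits that treat pairs 4 to 7 or 1 to 7 apart.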

Additional observations from a re-analysis of the deposited data

Results flagged for a closer look

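Of 117 groups of pools examined for a value far from the rest (Dixon's criterion, which chance alone meets in about 1 of 20 groups), 5 were set apart. Among fat-poor Low WSS pools, Ucp1 was 6.48 in pool 10, where the next highest pool was at 5.11, and pool 10 was also the fat-poor pool with the highest Adipoq. Fabp4 was lowest in Low WSS pool 11, at 5.04 with the next pool at 5.36, and Hspb7, a small heat shock protein of muscle, was highest there, at 8.36 with the next at 8.20. Tsn, which encodes translin, was 8.74 in Low WSS pool 14 with the next at 8.61. Among fat-poor High WSS pools, Agpat2, an enzyme of triglyceride synthesis, was 6.11 in pool 10, with the next at 5.51.

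The Low WSS minus High WSS difference of Fgf1 differed between fat-rich and fat-poor pools by 0.68 in a test of the difference itself.

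The pools between the classes entered no comparison, and several of their fat gene levels lay above the highest fat-poor pool. Ucp1 was 8.39 in High WSS pool 1 and 8.17 in Low WSS pool 9, against 6.48 in the highest fat-poor pool. Plin1 was 6.86 in High WSS pool 1, 6.35 in Low WSS pool 9, 6.07 in High WSS pool 7 and 5.99 in Low WSS pool 12, against 5.96. Fabp4 was 6.84 in High WSS pool 1, 6.66 in Low WSS pool 9 and 5.85 in Low WSS pool 12, against 5.55.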

How the results depend on the processing

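Against 1349 genes higher and 649 lower in fat-rich than in fat-poor pools, the counts were 509 and 104 with the pair as a fixed replicate block, 773 and 169 in Low WSS pools alone, 643 and 345 in High WSS pools alone, 860 and 419 with stricter classes, 814 and 371 with an unpaired form of the methods' t-test (unequal variances) after Benjamini-Hochberg (61 genes after Bonferroni), 263 and 26 with Bonferroni adjustment and 166 and 34 in pairs 1 to 7 alone, which hold 2 fat-poor pools. A mean level of at least 6 left 767 higher genes, centring gave 1254 lower genes, and 383 and 350 genes were lower with pairs 4 to 7 left out or as a covariate. Leaving out 1 pool gave 1163 to 1439 higher and 444 to 712 lower genes. Region calls in fat-poor pools (3138) were 999 with stricter classes and 2384 to 3375 with 1 pool left out, and in fat-rich pools (1657) 1241 to 1667. The interaction, with 1 gene, had 5 at a mean level of at least 6, 9 after centring, 8 with a random replicate block and 0 with stricter classes, and 0 to 19 with 1 pool left out (0 without Low WSS 3, 11 or 14, 19 without High WSS 5). Of 39 leading genes, all 39 kept their call after centring and with the random block, 32 with pairs 4 to 7 left out and 22 with the fixed block, where Ccdc190 and Plekha2 changed sign, to 0.093 and 0.021. The causes of these shifts were not tested. Of the genes higher with all pools, 719 were also past the threshold with pairs 4 to 7 left out and 396 with the fixed block, and of the lower ones 136 and 32.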
